A study of Bos taurus with 16 samples.

Results

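The 10 genes described here encode receptors by which macrophages take up modified lipoproteins, glycoproteins, hemoglobin complexes, folate or dying cells, or are marker proteins of such cells: MSR1, MRC1, CD163, FOLR2, STAB1, LYVE1, CD36, MERTK, TREM2 and GPNMB. Probes were chosen by gene name, or by the symbol in brackets in the probe's description, which gave 9 probes of 8 genes. Another 4 probes of these genes were named in another text column of the array annotation or through RefSeq accessions and gene identifiers. The 13 probes are part of 21475 probes on the array. Of these 13, 11 passed the filter on dim probes, as did 16653 of all probes. CD14+ cells were taken from blood and from endometrium of 4 cows killed at an abattoir, for which the stage of pregnancy was estimated as day 164 in animal 1, day 239 in animal 2, day 242 in animal 3 and day 248 in animal 4, and their RNA was set side by side on 8 arrays with 2 colours. No treatment is named, and no cow was without a pregnancy. Endometrial cells were dispersed by enzyme from tissue between the placentomes, and the cells of both tissues were sorted for CD14. The labels give a lower purity for the endometrial than for the blood preparations. There were 2 arrays for each animal, whose values were averaged, so that n is 4 animals throughout.

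Macrophages that live in tissues carry receptors with broad specificity that bind a ligand at the cell surface and bring it into the cell for degradation. Several of these receptors are scarce on blood monocytes and are acquired when a monocyte enters a tissue and matures. In the uterus, macrophages clear dying cells and matrix debris, and the mannose receptor and CD163 are widely used as markers of alternatively activated macrophages.

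Some probes need to be seen to be told apart. MSR1 has 2 probes whose values are both given below. The stretch from A_73_115241 ends in a stop triplet, in capitals, which is the first in its reading frame.
MSR1 A_73_102799: ttcaccagcctgcttcatttaatatccttg
MSR1 A_73_115241: gaagatgctggggtcacttgcactacaTAA
Of the 2 FOLR2 probes, the one described as FOLR2 on the array is shown, because its gene names conflict. The gene identifier that the array gives for A_73_104769 belongs to FOLR1 in RefSeq (assembly ARS-UCD2.0), and that of A_73_100284 belongs to FOLR2.
FOLR2 A_73_104769: atgccaggtaccataaggaaaaaccaggtc
The probes of STAB1 and GPNMB hold AATAAA, the common polyadenylation signal, in capitals.
STAB1: ggcctgagccagacAATAAAggtatactca
GPNMB: tcctttttccttcctgaaaAATAAAgtatg
That motif was found on the probe strand in 2 of the 13 member probes and in 11.8% of all probes. On the other strand it was in 0 of the 13 and in 3.88% of all probes.

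In each channel, 65.2% to 82.9% of spots exceeded background clearly, and no spot was saturated. Of 8 leukocyte and monocyte markers, 7 exceeded it in every channel of both tissues, and 0 were differentially expressed with limma, whereas 2 reached an unadjusted p of 0.05 or less. The exception was ITGAM, an integrin of myeloid cells, which was above background in 2 of 8 endometrial and 4 of 8 blood channels. CD14 itself varied widely between animals. In blood its log2 normalized intensity was 16.12, 5.76, 8.85 and 6.94 in animals 1 to 4. In endometrium it was 14.04, 6.07, 9.50 and 7.38, so that animal 1 stood above the other animals in both tissues. CSF1R, the receptor that macrophages need for survival, had a mean log2 ratio of endometrium over blood of 3.53, above 0 in 4 of 4 animals, with an adjusted p of 0.0642.

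In the comparison of endometrium with blood, which asks how CD14+ cells of the pregnant uterus differ from their circulating counterparts, the macrophage scavenger receptor MSR1, the mannose receptor MRC1 and the folate receptor FOLR2 were 23.6- to 24.4-fold higher in endometrial cells in the deposited values, MSR1 by 1 of its 2 probes. The other MSR1 probe had 7.19-fold and missed the threshold (adjusted p 0.0559). FOLR2 stands here for probe A_73_100284. The other probe described as FOLR2, A_73_104769, which is FOLR1 by its gene identifier, had 2.27-fold (adjusted p 0.724). None of these probes was called after renormalization of the scanner medians (at a background offset of 50), with log2 ratios of 3.00, 2.63 and 2.36 for MSR1, MRC1 and FOLR2, or when animal 4 was left out. CD163, LYVE1 and GPNMB had mean ratios between 2.30 and 3.90 on the log2 scale that did not pass the test, and STAB1, MERTK and TREM2 had smaller ones. CD36 was hardly detected. Of the 11 member probes tested, 3 were differentially expressed, all higher in endometrium. Among these 3, the probes of MRC1 and FOLR2 were not found by gene name or bracketed symbol, and the MRC1 probe had no RefSeq name. Over all 16653 probes tested, 1.35% were differentially expressed, and 1.23% were higher in endometrium. The mean log2 ratio was above 0 for all 11 member probes, with a median of 2.85, whereas the median over all probes tested was -0.14. The members were chosen with earlier results of these data known, so these comparisons with all probes are no independent test. Higher values in endometrium in 4 of 4 animals were found for 5 of the 11 member probes and for 9.82% of all probes. The ranges of endometrium and blood over the 4 animals overlapped for all 11, while 2.7% of all probes had an endometrial range wholly above the blood range. Before adjustment, 7 of the 11 had a p of 0.05 or less. With 4 pairs, the smallest 2-sided p that an exact permutation test of a single probe allows is 0.125. That test, exchanging the tissues within animals, gave 0.125 for both MSR1 probes, CD163, MRC1 and FOLR2 A_73_100284. It gave 0.25 to 0.75 for the other member probes tested. The calls were made with limma, which pools the spread over probes.

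**Figure D1:**
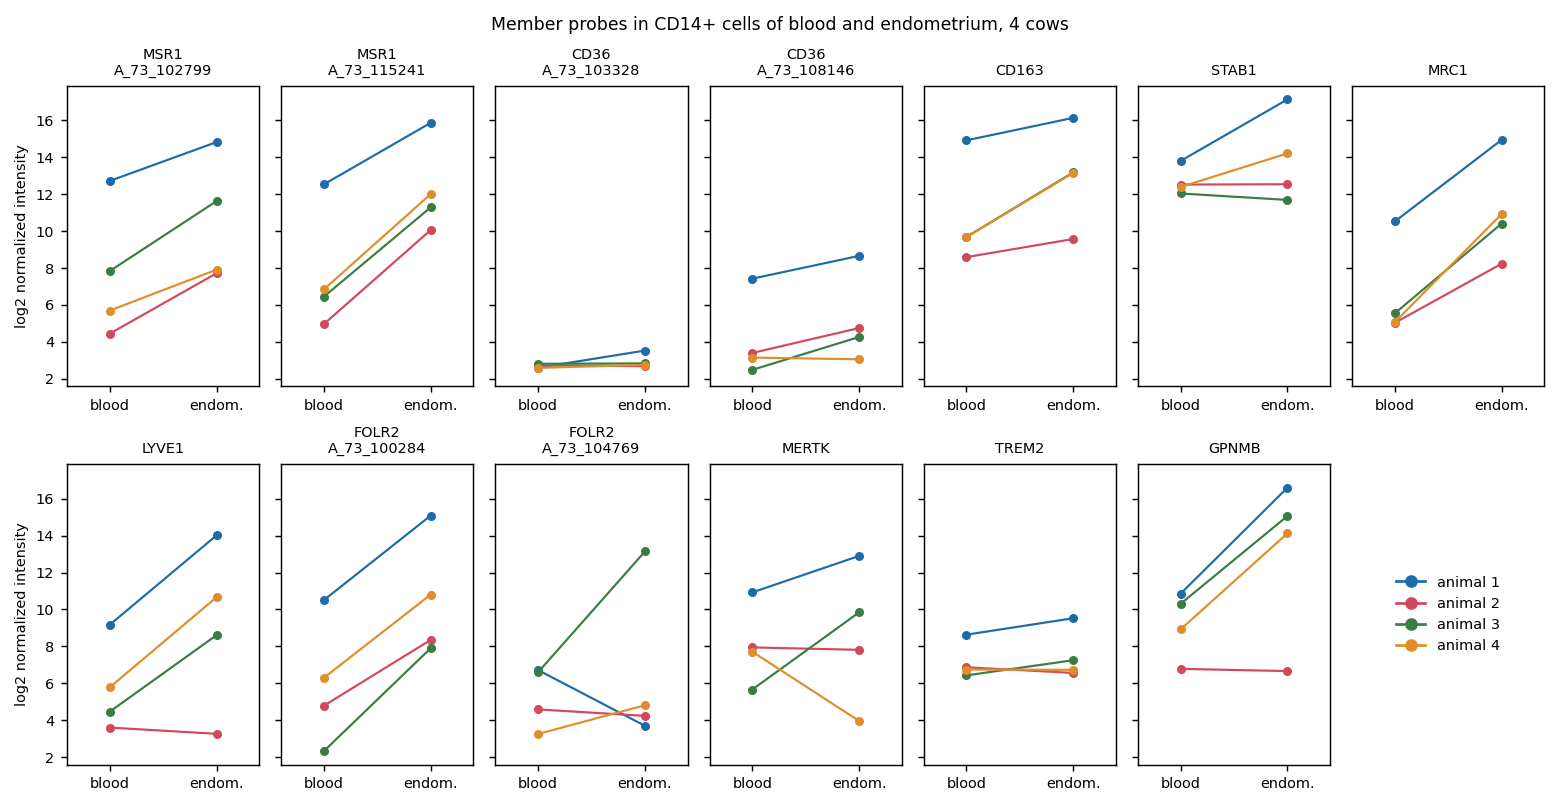
Log2 normalized intensity (y axis) of each of the 13 member probes in CD14+ cells of blood and endometrium (x axis), with 1 line for each animal. Animal 1 has the highest value in both tissues in most panels, and the lines of MSR1, MRC1 and FOLR2 A_73_100284 rise from blood to endometrium in all 4 animals.

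The class A receptor MSR1 binds modified lipoproteins and bacterial surface molecules. With probe A_73_115241, its log2 normalized intensity in endometrium was 15.87, 10.06, 11.29 and 12.01 in animals 1 to 4. In blood it was 12.54, 4.96, 6.45 and 6.84, and in animal 2 only 1 of the 2 blood channels was well above background. Endometrium was higher within each animal, by 3.34 to 5.17 on the log2 scale, although the lowest endometrial value lay below the blood value of animal 1. On average the log2 ratio was 4.61 ± 0.86 (SD, n = 4), a 24.4-fold difference with an adjusted p of 0.0109. With probe A_73_102799, endometrium had 14.82, 7.72, 11.63 and 7.91 in animals 1 to 4. Blood had 12.72, 4.44, 7.84 and 5.70, and in animal 2 it was well above background in 0 of 2 channels. The second probe was also higher in endometrium in 4 of 4 animals, by 2.10 to 3.79. Its mean log2 ratio was 2.85 ± 0.82 (SD, n = 4), or 7.19-fold, and its adjusted p of 0.0559 missed the threshold. The difference between the ratios of the 2 probes was not tested.

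CD163 takes up the complex of hemoglobin and haptoglobin and is restricted to monocytes and macrophages. For it, every channel of both tissues was well above background. Its log2 normalized intensity in endometrium was 16.14, 9.58, 13.19 and 13.16 in animals 1 to 4. In blood it was 14.92, 8.59, 9.69 and 9.67. All 4 animals had more in endometrium, but by about 1 unit in animals 1 and 2 (1.22 and 0.98) and by 3.50 and 3.49 in animals 3 and 4. This gave a mean log2 ratio of 2.30 ± 1.38 (SD, n = 4), a 4.92-fold difference with an adjusted p of 0.181.

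STAB1, or stabilin-1, clears acetylated lipoproteins and the matrix protein SPARC and is made by sinusoidal endothelium as well as by macrophages. In endometrium its log2 normalized intensity was 17.14, 12.54, 11.69 and 14.21 in animals 1 to 4. In blood it was 13.81, 12.52, 12.04 and 12.39, the narrowest spread in blood of any member probe tested (SD 0.77). Endometrium exceeded blood by 3.33 in animal 1 and 1.82 in animal 4, and the difference was 0.02 in animal 2 and -0.35 in animal 3. Their mean log2 ratio of 1.21 ± 1.71 (SD, n = 4) had an adjusted p of 0.438.

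CD36, the class B receptor for oxidized lipoproteins and long-chain fatty acids, is also carried by platelets and capillary endothelium. Its probe A_73_103328 was not well above background in any of the 16 channels. Its second probe, A_73_108146, was above background in 3 of 8 endometrial and 2 of 8 blood channels, among them all 4 of animal 1, where it had a log2 normalized intensity of 8.66 in endometrium and 7.43 in blood. In animals 2 to 4 it lay between 3.06 and 4.75 in endometrium and between 2.48 and 3.40 in blood, close to the lowest values that counted as well above background in a channel (3.30 to 5.84). Neither probe was tested.

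MRC1 is the mannose receptor, a C-type lectin that binds mannosylated glycoproteins. Its log2 normalized intensity in endometrium was 14.95, 8.24, 10.41 and 10.93 in animals 1 to 4. In blood it was 10.53, 5.03, 5.55 and 5.07, and in animals 2, 3 and 4 only 1 of the 2 blood channels was well above background. Blood values of those animals lay between 5.03 and 5.55, and every endometrial value was above them. MRC1 had a mean log2 ratio of 4.59 ± 1.10 (SD, n = 4), a 24.1-fold difference with an adjusted p of 0.0142, and the ratio was lowest in animal 2 (3.20) and highest in animal 4 (5.86). LYVE1, the hyaluronan receptor of lymphatic endothelium and of some tissue macrophages, had 14.01, 3.26, 8.61 and 10.66 in endometrium of animals 1 to 4. In blood it had 9.17, 3.60, 4.46 and 5.78. Animals 1, 3 and 4 were higher in endometrium by 4.15 to 4.88, whereas neither tissue of animal 2 was above background in any channel. Over the 4 animals LYVE1 had a mean log2 ratio of 3.38 ± 2.51 (SD, n = 4), with an adjusted p of 0.182.

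FOLR2 is folate receptor beta, the form of the folate receptor found on macrophages. With probe A_73_100284, which is FOLR2 by its gene identifier, endometrium had a log2 normalized intensity of 15.09, 8.35, 7.90 and 10.81 in animals 1 to 4. Blood had 10.51, 4.78, 2.32 and 6.30, and 5 of its 8 channels were well above background. The endometrium of every animal was higher, by 3.57 to 5.58. FOLR2 had a mean log2 ratio of 4.56 ± 0.82 (SD, n = 4), a 23.6-fold difference with an adjusted p of 0.0109. That fold includes blood values below this limit, since 0 of 2 blood channels in animal 3 and 1 of 2 in animal 2 were well above background. Probe A_73_104769, described as FOLR2 but FOLR1 by its gene identifier, behaved differently. It had 3.70, 4.23, 13.14 and 4.81 in endometrium and 6.71, 4.58, 6.60 and 3.25 in blood. Its ratio was -3.02, -0.35, 6.54 and 1.56 in animals 1 to 4, so that animal 3 alone set the mean of 1.18 ± 4.03 (SD, n = 4), with an adjusted p of 0.724. FOLR1, folate receptor alpha, is best known from epithelia. In RefSeq, FOLR3, FOLR1 and FOLR2 are neighbours, with a tRNA gene between the latter pair. FOLR3 has 2 probes. The brighter one, A_73_112516, had 9.02, 10.02, 15.07 and 13.35 in endometrium and 5.86, 3.51, 9.26 and 7.35 in blood, with a mean log2 ratio of 5.37 and an adjusted p of 0.0138. The other, A_73_105406, had a mean log2 ratio of 1.57 and an adjusted p of 0.396.

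MERTK is the receptor tyrosine kinase that recognizes dying cells through the bridging proteins GAS6 and protein S. It had a log2 normalized intensity of 12.90, 7.81, 9.84 and 3.96 in endometrium of animals 1 to 4. In blood it had 10.92, 7.94, 5.66 and 7.71. The tissues differed in opposite directions between animals, from 4.18 in animal 3 to -3.75 in animal 4, whose endometrium was not above background in either channel. MERTK had a mean log2 ratio of 0.57 ± 3.38 (SD, n = 4), with an adjusted p of 0.859. TREM2, a lipid-sensing receptor that signals through TYROBP, had 9.52, 6.56, 7.25 and 6.73 in endometrium. In blood it had 8.63, 6.86, 6.43 and 6.74, and all 16 channels were well above background. Its log2 ratios stayed between -0.30 and 0.89, the narrowest range of any member probe tested, with a mean of 0.35 ± 0.60 (SD, n = 4) and an adjusted p of 0.766.

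GPNMB, a transmembrane glycoprotein of lysosome-rich macrophages and pigment cells, was well above background in all channels. In endometrium it had 16.60, 6.66, 15.07 and 14.13 in animals 1 to 4. In blood it had 10.86, 6.78, 10.31 and 8.92. Animals 1, 3 and 4 had log2 ratios of 5.74, 4.76 and 5.20, and animal 2 one of -0.12. GPNMB had a mean log2 ratio of 3.90 ± 2.71 (SD, n = 4), or 14.9-fold, with an adjusted p of 0.163. Without animal 2, GPNMB and LYVE1 passed the test with mean log2 ratios of 5.24 and 4.63, and 5 member probes in all were then differentially expressed.

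**Figure D2:**
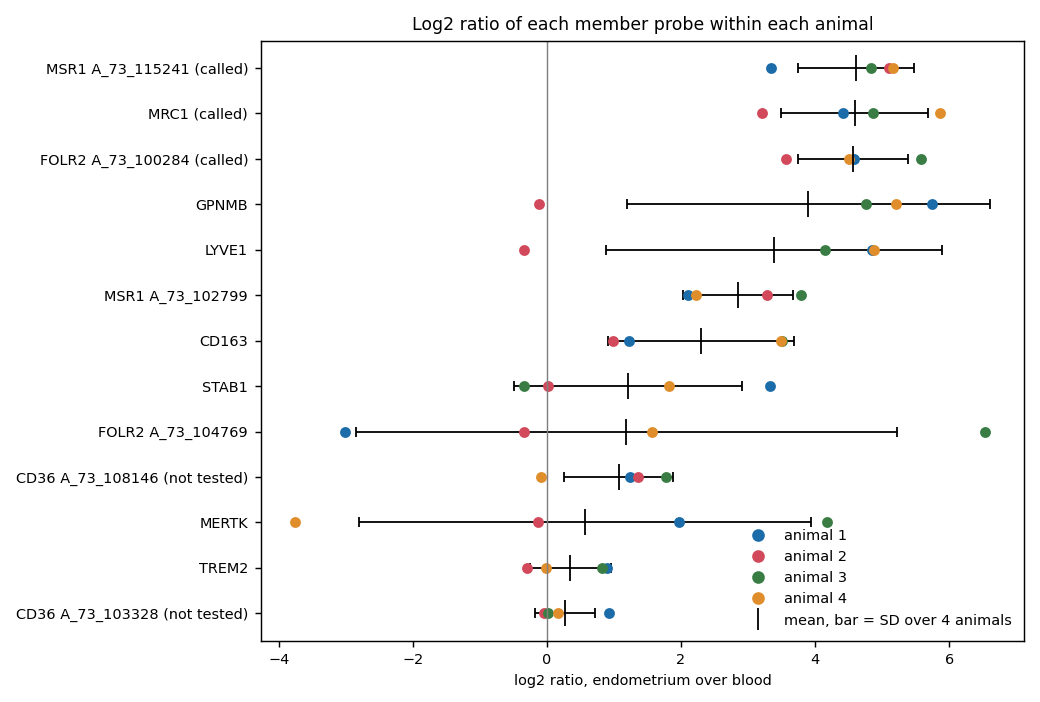
Log2 ratio of endometrium over blood (x axis) for each member probe (y axis), with a dot for each animal, the mean as a tick and the SD over 4 animals as a bar. The 3 probes that were differentially expressed have all 4 animals above 3, while GPNMB and LYVE1 have animal 2 next to 0 and the other 3 animals above 4.

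The level of these genes differed between animals in both tissues. Of the 13 member probes, 12 had their highest endometrial value and 12 their highest blood value in animal 1. Over all probes tested, animal 1 was highest for 19.0% in endometrium and 31.0% in blood. Related lists had it too, with 15 and 12 of 16 further tissue macrophage genes, 10 and 13 of 15 blood monocyte genes and 7 and 7 of the 8 leukocyte and monocyte markers highest in animal 1, in endometrium and blood. Animal 2 held the lowest endometrial value for 8 of 13 member probes, compared with 15.7% of all probes tested. The 13 include the 2 CD36 probes, which were too dim to be tested. The median log2 ratio of the 13 member probes was 2.10 in animal 1, 0.02, 4.15 and 2.21 in animals 2, 3 and 4, and 12, 7, 12 and 10 of them were higher in endometrium. Over all probes tested the median log2 ratio of an animal lay between -0.24 and -0.05. The SD of the log2 ratio over animals had a median of 1.38 among the 11 member probes and of 1.12 among all probes tested. The ratios of the 2 arrays of an animal differed by a median of 0.19 and by at most 2.21, for CD36 A_73_108146 in animal 3. Days of pregnancy differ between the animals, so that day and animal cannot be told apart.

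The calls rested on the pairing of tissues within animals and on the values used. With the tissues compared without pairing, 0 of 11 member probes were differentially expressed, and 2 met the thresholds before adjustment. When the scanner's median intensities were normalized anew, 0.0661% of all probes and 0 of the 11 member probes were differentially expressed, and 7 of the 11 met the thresholds before adjustment. The log2 ratio was then 3.00 for MSR1 A_73_115241, 2.63 for MRC1 and 2.36 for FOLR2 A_73_100284, with adjusted p of 0.0814, 0.259 and 0.262. The decrease was largest for FOLR2 A_73_100284, which fell from 4.56. In animal 3, whose blood cells were not above background for this probe in the deposited values, its ratio was 1.16 after renormalization and 5.58 before. GPNMB, CD163, STAB1 and TREM2, with all 16 channels above background, had 3.66, 2.05, 1.14 and 0.23, next to 3.90, 2.30, 1.21 and 0.35.

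**Figure D3:**
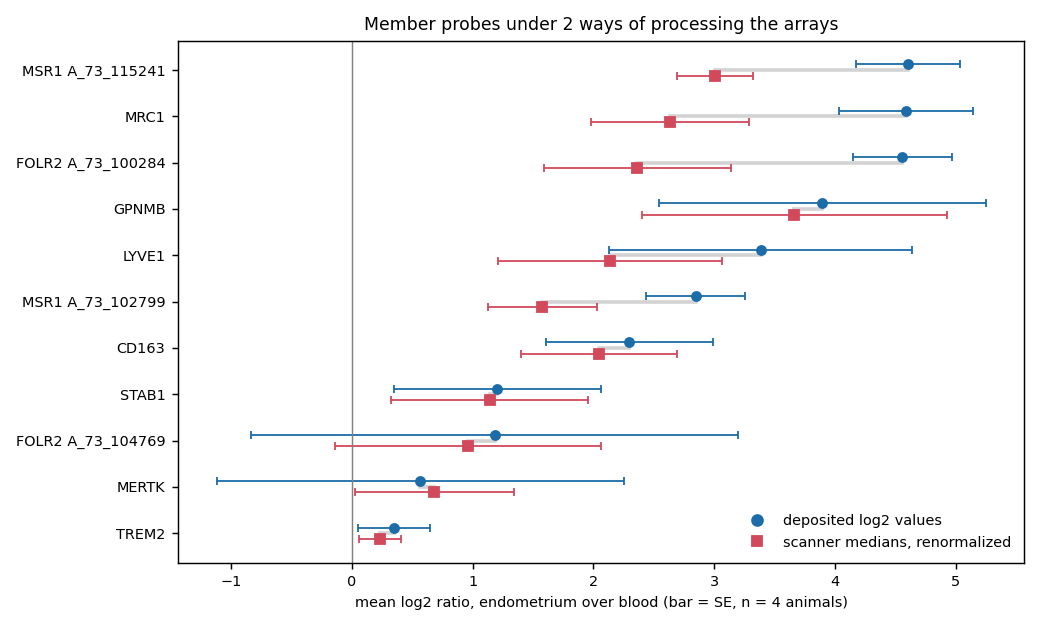
Mean log2 ratio of endometrium over blood (x axis; bars are SE, n = 4 animals) for the 11 member probes tested, from the deposited values (circles) and from scanner medians that were normalized anew (squares). The ratios of MSR1, MRC1, FOLR2 A_73_100284 and LYVE1 are smaller after renormalization, and all 11 means stay above 0.

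Other receptors and partners of the same pathways were taken from lists, with the brightest probe for each gene. Ratios of listed genes are from the deposited values unless renormalization is named. Of 12 further scavenger receptors tested, 1 was differentially expressed, MEGF10, an engulfment receptor, with a mean log2 ratio of 6.14 and an adjusted p of 0.00732. The median of the 12 was 0.55. MARCO, a class A receptor like MSR1, had a mean log2 ratio of -1.19 and an adjusted p of 0.537. OLR1, the lectin-like receptor for oxidized lipoprotein, was lower in endometrium in 4 of 4 animals with a mean of -2.05 and an adjusted p of 0.181. COLEC12 had 3.74 (adjusted p 0.191), SCARB1 1.23 (0.512), SCARB2 0.91 (0.435) and STAB2, the paralog of STAB1, 0.19 (0.896). Of 9 C-type lectins tested, 1 passed, namely MRC2, a collagen-binding paralog of MRC1, with a mean log2 ratio of 3.46 and an adjusted p of 0.0358. LY75, another paralog, had 0.59 with an adjusted p of 0.723, CLEC7A was not tested because it was too dim, and CD209 had no probe under that name.

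Of 23 genes for the uptake of dying cells, 2 were differentially expressed, both higher in endometrium. TIMD4, which binds phosphatidylserine on dying cells, had a mean log2 ratio of 4.92 with an adjusted p of 0.00952. PROS1, protein S, which bridges dying cells to MERTK, had 4.54 with an adjusted p of 0.0154. AXL and TYRO3, the kinases of the same family as MERTK, had mean log2 ratios of 3.78 and 2.34 and adjusted p of 0.0804 and 0.214. GAS6, MFGE8 and LRP1 had 0.94, 0.97 and 2.26, none of which passed the test. Of 20 partners and ligands tested, 3 passed with higher values in endometrium and 1 with higher values in blood. APOE, a ligand of TREM2 and of lipoprotein receptors, had a mean log2 ratio of 4.10 with an adjusted p of 0.0134. CLU, an extracellular chaperone, and FOLR3 were the others that were higher in endometrium. TREML2, a relative of TREM2, was lower by a log2 ratio of -3.42 with an adjusted p of 0.0292. TYROBP, the signaling partner of TREM2, had 1.14 (adjusted p 0.539), TREM1 -0.58 (0.577), HP, the haptoglobin bound by CD163, -1.74 (0.419), and HMOX1, which degrades the heme that CD163 delivers, 2.97 (0.127). HCST had no probe under that name.

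**Figure D4:**
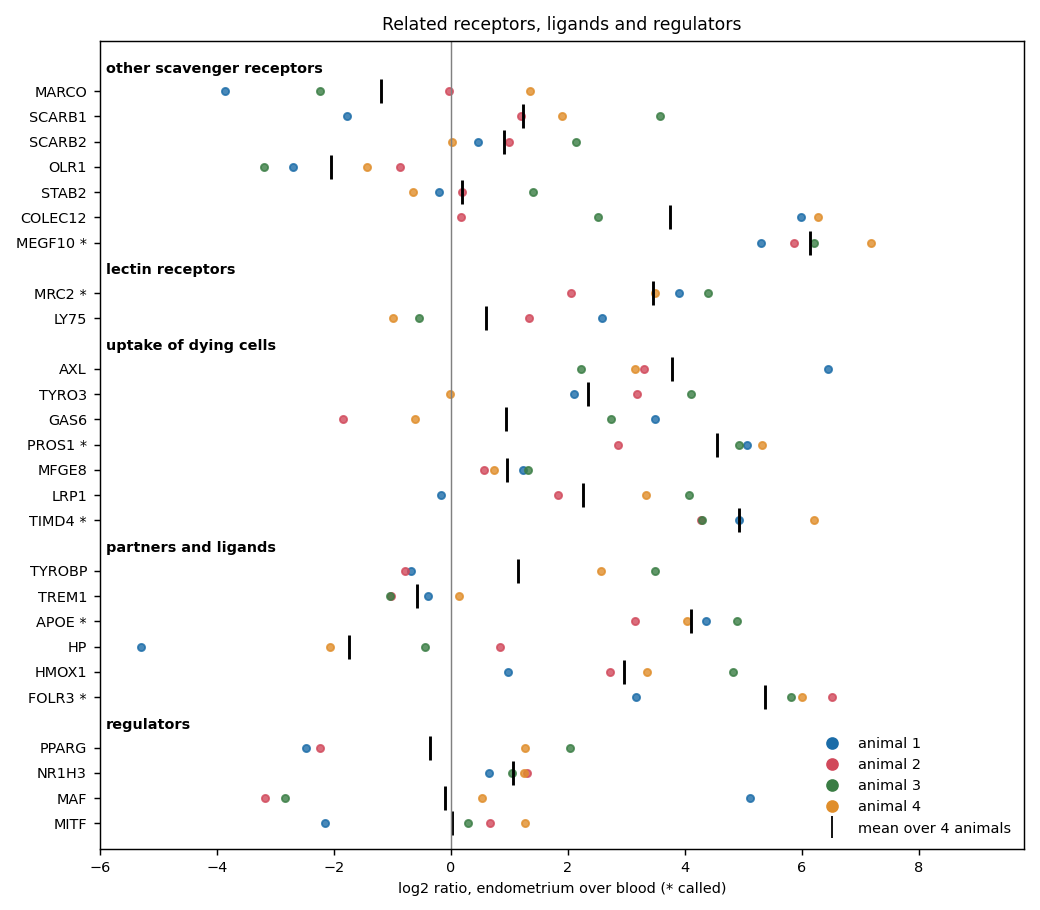
Log2 ratio of endometrium over blood (x axis) for related receptors, ligands and regulators (y axis, by group), with a dot for each animal and the mean as a tick; an asterisk marks genes that were differentially expressed. The 6 marked genes have all 4 animals above 2, while MARCO, HP, MAF and PPARG have animals on both sides of 0.

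Of 25 transcription factors and cytokine signals that are known to act on these receptors, 0 were differentially expressed with limma, and 6 had an unadjusted p of 0.05 or less, 3 in each direction. The methods' analysis of variance, computed anew here, called 0 of all probes at the adjusted p of 0.05 used here, and 1229 before adjustment. Mean log2 ratios were -0.35 for PPARG, 1.06 for NR1H3, -0.10 for MAF and 0.02 for MITF. Of 16 further genes of tissue macrophages, 7 were differentially expressed, all higher in endometrium, and the median of the list was 3.29. They included SLCO2B1 (5.64), C1QA (4.25), C1QC (3.75) and VSIG4 (4.35), TIMD4 and APOE again, and C1QB. ADGRE1, an adhesion receptor, had -2.81, below 0 in 4 of 4 animals, with an adjusted p of 0.248, and LGMN, a lysosomal protease, had -0.79 with an adjusted p of 0.739. This list was drawn up with earlier results of these samples known. Of 15 genes of blood monocytes, 0 passed, 4 reached 0.05 or less before adjustment, and the list had a median of -1.03.

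Markers of other cells also differed between the tissues and between the animals. Of 16 epithelial genes, 7 were differentially expressed and higher in endometrium, among them CDH1 (5.11), KRT7 (5.88) and SERPINA14 (6.53), and their summed log2 intensity was 15.3 to 18.6 in endometrium and 11.2 to 13.4 in blood. Of 11 trophoblast genes tested, 5 were differentially expressed and higher in endometrium, and 8 had a ratio above 0 in 4 of 4 animals, with PRP6 at 5.74, CSH2 at 5.45, PRP1 at 5.25 and PAG7 at 4.63, and sums of 14.6 to 15.9 and 12.6 to 14.6. A gene listed as PAG1 had -2.57, below 0 in 4 of 4 animals, with an adjusted p of 0.172. Its mean log2 normalized intensity was 13.3 in blood and 10.7 in endometrium. It was the brightest of the list in blood, so it weighs heavily in the blood sums of this list. What this probe measures was not checked. Of 13 stromal genes, 2 were differentially expressed and higher in endometrium, COL3A1 (4.86) and DCN (5.26), and 5 had an unadjusted p of 0.05 or less. The stromal median was 2.23, with sums of 12.9 to 18.5 in endometrium and 13.2 to 16.8 in blood. VIM was the brightest stromal gene in blood, with a mean log2 normalized intensity of 14.3 there and a mean log2 ratio of -0.72. Of 15 endothelial genes 0 passed and 3 had an unadjusted p of 0.05 or less, with sums of 12.2 to 15.1 in endometrium and 11.9 to 12.8 in blood. CDH5, the cadherin of endothelium, exceeded background clearly in 6 of the 8 channels of endometrium, and in blood in 0 of 8. Of 4 genes of lymphatic endothelium, which shares LYVE1, 0 passed and 1 had an unadjusted p of 0.05 or less. Of 7 platelet genes, 0 passed and 2 had an unadjusted p of 0.05 or less, both lower in endometrium, with sums of 12.2 to 13.7 in endometrium and 12.5 to 14.1 in blood. Of 16 genes that respond to cell dispersal, 1 passed, HSPA6 (5.80), and 11 had a ratio above 0 in 4 of 4 animals, with sums of 18.6 to 19.9 in endometrium and 17.6 to 18.7 in blood. Of 8 B cell genes, 1 was differentially expressed and higher in blood, BLK (-3.36), with sums of 13.4 to 15.9 in endometrium and 14.6 to 17.4 in blood, and of 4 granulocyte genes, 1 was, CCR3 (-4.31), with sums of 7.37 to 11.9 and 8.56 to 14.7.

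Marker lists of other cells also differed between the animals in which the members were high or low. In animal 1, where 12 of 13 member probes were highest in each tissue, 13 of 13 stromal genes were highest in endometrium and 12 in blood. The log2 of the summed intensity of 15 natural killer and T cell genes was lowest there, at 15.9 in endometrium and 13.1 in blood. It was 17.2 to 18.6 and 16.4 to 17.2 in animals 2 to 4. Animal 2, where the member probes were lowest most often in endometrium, had the highest natural killer and T cell sum in endometrium (18.6) and the lowest stromal sum there (12.9). Its stromal sum in blood (14.3) lay above those of animals 3 and 4 (13.2 and 13.7), but VIM weighs heavily in the blood sums. The stromal median in blood was 4.72 in animal 2, and 5.96 and 4.45 in animals 3 and 4. The B cell sum did not follow this order and was 14.1, 13.9, 13.4 and 15.9 in endometrium of animals 1 to 4. Of 15 natural killer and T cell genes, 0 were differentially expressed between the tissues, and 5 had an unadjusted p of 0.05 or less. The part of these other cells in the values of the member probes was not tested. In RNA of sorted cells, a change in the share of macrophages and a change in the RNA of each macrophage cannot be told apart.

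**Figure D5:**
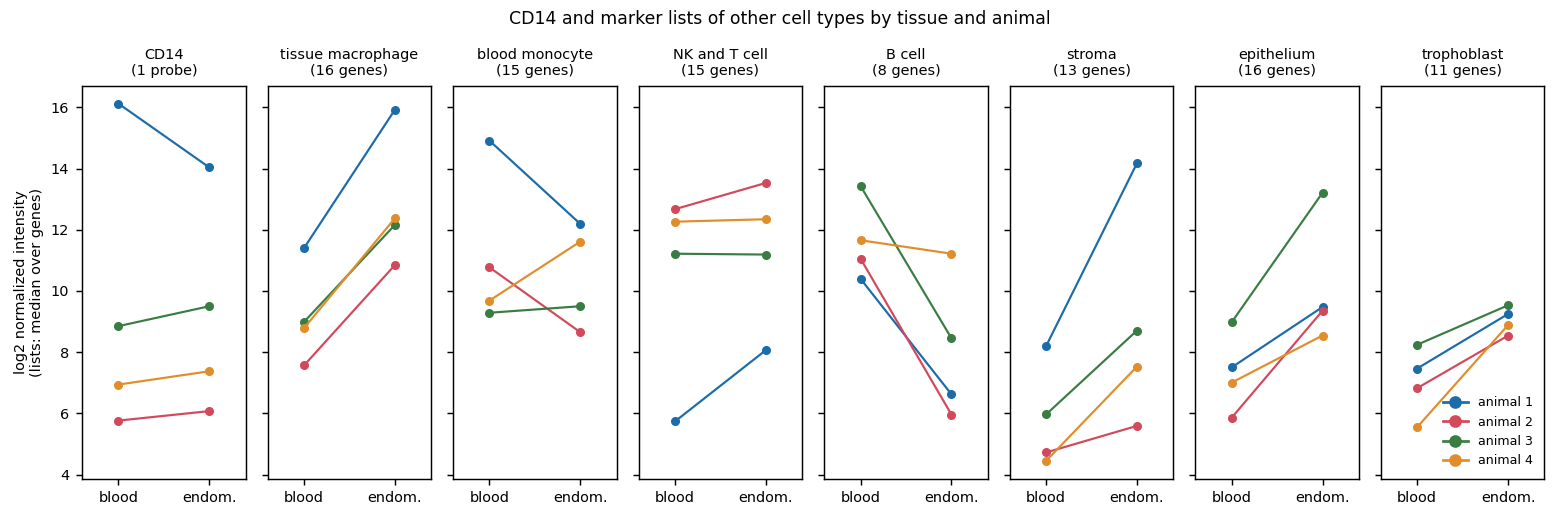
Log2 normalized intensity (y axis) of CD14 and the median over the genes of 7 marker lists in blood and endometrium (x axis), with 1 line for each animal. Animal 1 is highest for CD14, tissue macrophage and stroma in both tissues and lowest for natural killer (NK) and T cell genes.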

How the data were processed

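Arrays were Agilent bovine oligonucleotide arrays read with Feature Extraction, version 9.5 in the submitters' processing notes and 10.5.1.1 in the file header. RNA had been amplified before labeling. The authors deposited log2 values that had been through lowess within each array and quantile normalization across the 16 channels, and the scanner's intensity of each spot and its background, without normalization. Depth has no counterpart here, and the number of arrays limits precision. Columns of the log2 values and scanner files were compared by rank of the processed intensity. All 16 columns matched (100% of the probes, within 0.001, with the spots of a probe sorted by value; 40.9% to 41.0% of the spots in their deposited order) the labeled dye in the file given for the same animal's other technical replicate, and at most 0.0186% of the probes in the file given for the column itself. Scanner files were read by this match. In animals 1, 2 and 4 dyes were swapped between arrays, and with the files as attached every ratio of these animals turns its sign, whereas those of animal 3 do not change. Across 16653 probes, ratios of animal 3 correlated with those of the other animals with r of 0.331 to 0.378 as read here, and of -0.378 to -0.331 as attached.

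Spots of a probe were averaged, without control spots and without the 3 to 20 spots per array flagged as outliers, and endometrium over blood was expressed as a log2 ratio for each animal. Probes entered the test when, in 1 tissue or both, 4 or more of its 8 channels exceeded background clearly. Ratios were tested against 0 over 4 animals with lmFit and eBayes of limma 3.58.1 (R 4.3.3, statmod 1.5.0). A probe was called differentially expressed when its p, adjusted by Benjamini-Hochberg over all probes tested, was 0.05 or less and its fold change exceeded 2. The labels pair the tissues by animal, and within an animal, blood and endometrium deviated together from their group means, with r of 0.628, 0.372, 0.239 and 0.452. For the renormalized values, scanner medians went through normexp with an offset of 50, loess and quantiles. Alternatives concerned the values, the reading of the files, the filter, the pairing, dye, slide, animals, test and threshold. Nothing in the labels says that the technical arrays are separate extracts, and they counted as 1 value.

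The members and all gene lists were chosen with earlier results of these data known. Genes named are every probe of the members, the 8 lineage markers, a fixed set of related genes, and up to 3 genes of each list with the lowest adjusted p among those differentially expressed, ties included. C1QB, CLU, CDH5, PAG1, VIM, ADGRE1, LGMN and FOLR3 A_73_105406 were named after their values were seen. A gene of the fixed set and a probe sequence are not reported here. Of the array's probes, 3519 were named through a RefSeq accession and 9987 through a gene identifier (assembly ARS-UCD2.0). Coordinates in that reference served only to order the folate receptor genes, and the build of the array design is not given in the sources used here.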

Additional observations from a re-analysis of the deposited data

Results flagged for a closer look

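Among 39 sets of 4 values (the endometrium, the blood and the ratio of each member probe), 4 held a value that stood far from the other 3, measured as the gap to the nearest value over the whole range. Chance gives about 1 such set in 20. The ratio of GPNMB was such a set, with a gap of 0.832 of the range: animal 2 had a log2 ratio of -0.12, and the other animals had 4.76 to 5.74. The ratio of LYVE1 had a gap of 0.860, also from animal 2, at -0.34 against 4.15 to 4.88. Neither tissue of animal 2 was above background for LYVE1. For MRC1 in blood the gap was 0.906, from animal 1 at a log2 normalized intensity of 10.53 against 5.03 to 5.55. In each of those other animals, only 1 of the 2 blood channels was well above background. For FOLR2 A_73_104769, the probe whose gene identifier is FOLR1, the gap in endometrium was 0.882, from animal 3 at 13.14 against 3.70 to 4.81. With this probe, animal 1 had 1 endometrial channel well above background, and animals 2 and 4 had 0. No cause was tested.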

How the results depend on the processing

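Over all probes, 224 were differentially expressed in the main analysis. The count was 11 with scanner medians normalized anew at an offset of 50, 66 at an offset of 16 and 5 without quantiles. It was 0 with the files as attached (121 before adjustment), 123 without a filter on dim probes, 38 without the replicate block of animals, and 0 by the methods' analysis of variance (1229 before adjustment). Leaving out 1 animal gave 0 to 181, with 69 without animal 1, 95 without animal 3 and 0 without animal 4 (2675 before adjustment). Of the 11 member probes, 3 were differentially expressed. The count was 0 at an offset of 50, 1 at an offset of 16 (MSR1 A_73_115241), 0 without quantiles, 0 with the files as attached, 0 without the replicate block, that is with the animals not paired, and 0 by analysis of variance (before adjustment 7, 7, 0, 2 and 5 in the settings with 0). Leaving out 1 animal gave 0 to 5. Without animal 1 it was 1 (MSR1 A_73_115241), without animal 3 it was 2, and without animal 4 it was 0, with adjusted p of 0.0601 to 0.0686 for MSR1 A_73_115241, MRC1 and FOLR2 A_73_100284. MSR1 A_73_102799 was called where all 8 channels of a tissue had to be above background (adjusted p 0.0280), with a dye term (0.0445) and with a slide term (0.0495). With a dye term MSR1 A_73_115241 (0.0523) and FOLR2 A_73_100284 (0.0698) were not called, nor was FOLR2 A_73_100284 with a slide term (0.0739). With the files as attached the mean log2 ratio reversed to -0.28 and -1.64 for MSR1 (A_73_102799, A_73_115241), -0.49 for CD163, -1.30 for STAB1, -1.52 for MRC1, -1.42 for LYVE1, -1.78 for FOLR2 A_73_100284 and -1.40 for GPNMB. Without animal 3 it reversed to -0.60 for FOLR2 A_73_104769 and -0.64 for MERTK, and leaving out each animal in turn gave -0.60 to 2.58 and -0.64 to 2.01. In the other alternatives no member probe reversed. The cause was not tested. Of 207 values of single member probes under alternatives, 169 kept their direction and side of the threshold, 23 fell short of it, 5 newly passed and 10 reversed. Channels below background limit the blood values of MSR1, MRC1, FOLR2 and LYVE1. Among the listed genes they also limit the blood values of MEGF10, PROS1, VSIG4, KRT7, COL3A1 and DCN, and the endometrial values of CCR3.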
